A study of Mus musculus with 4 samples.

Results

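The minor repeat classes are the repeats of the mouse genome that lie outside the 9 large classes LINE/L1, LTR/ERV1, LTR/ERVK, LTR/ERVL, LTR/ERVL-MaLR, SINE/Alu, SINE/B2, SINE/B4 and SINE/MIR. They were taken by the class written in each repeat's identifier, and an entry was kept when it had a methylation level in all 4 libraries. This left 3521 entries in 44 classes and 318 repeat names, or 7.83% of the 44955 repeats with a level in every library. The other 41434 belonged to the 9 large classes. A further 595 entries of minor classes were listed in fewer than 4 libraries and were not used.

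The data came from C3H10T1/2 cells, a mouse mesenchymal stem cell line, analysed by reduced representation bisulfite sequencing (RRBS). Bisulfite converts unmethylated cytosine, so that the reads show which cytosines carried a methyl group. There were 4 libraries, 1 for each condition. NC cells received control siRNA for 48 h, and siDNMT1 cells received siRNA against DNA methyltransferase 1 (DNMT1) for 48 h. NC OB and siDNMT1 OB cells received the same siRNAs and were then kept for 3 days in osteoblast (OB) medium with ascorbic acid, β-glycerophosphate and dexamethasone. The NC and siDNMT1 cells were not induced. By the labels, the OB cells also had 3 more days after transfection, so medium and time cannot be told apart. All 4 libraries thus shared the cell line and a transfection, and no library came from untransfected cells. siRNA lowers a protein without removing it, and the amount of DNMT1 left cannot be read from a methylation table.

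Each value is a methylation level, the methylated fraction of CpG in an entry, from 0 to 1. No read number accompanies it, so the depth behind a level is unknown. With 1 library per condition there was no replicate error, no test was possible, and every difference below is a difference between 2 libraries. A change was counted when the level differed by at least 0.1. The counts over all members are set beside the share of all 44955 repeats that changed as much in the same direction, and these shares also serve for the counts by class. Of the minor classes, 3893 entries were listed in NC, 3938 in siDNMT1, 3825 in NC OB and 3678 in siDNMT1 OB. The siDNMT1 OB library also had the most members at exactly 0 or 1, namely 72, against 41 in NC, 35 in siDNMT1 and 53 in NC OB.

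Repeats are copies of mobile or tandem sequences, and most copies in a mammalian genome are old and can no longer move. LINEs and SINEs spread through an RNA copy, LTR elements are related to retroviruses, and DNA transposons moved as DNA. Satellites are tandem arrays, many of them at centromeres. DNMT1 copies the methylation of the parent strand onto the new strand when DNA replicates, and in somatic cells methylation at repeats is one of the marks that keep them silent.

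An identifier names the repeat, the class and the first and last base in the consensus of that repeat. It gives no position in the genome. Whether an entry lies in an exon, an intron or a promoter was therefore not analysed here, and copies with the same consensus span cannot be told apart. Spans of the same repeat name overlapped for 3308 of the 3521 members (94%), so that members share sequence and are not independent of each other.

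The repeat name BC1_Mm refers to an RNA with an annotated gene. Its sequence from the mouse assembly GRCm38 (RefSeq) is given to show how few CpG sites such a short repeat offers, with each CpG in capitals. It is the gene sequence, not that of the repeat entries, and the consensus numbering may differ from the gene numbering. The Bc1 gene lies on the plus strand at chr7:144914470-144914623, is annotated as a noncoding RNA, and has 3 CpG sites in 154 bases.
Bc1: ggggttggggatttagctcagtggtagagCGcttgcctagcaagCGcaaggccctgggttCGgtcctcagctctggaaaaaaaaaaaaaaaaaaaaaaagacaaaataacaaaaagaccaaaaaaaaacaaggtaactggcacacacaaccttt
All 3 CpG sites of Bc1 lie between bases 30 and 62, in the part that resembles a tRNA. A BC1_Mm level may thus rest on very few sites.

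Over all members, the median level was 0.531 in NC, 0.528 in siDNMT1, 0.531 in NC OB and 0.514 in siDNMT1 OB. The 9 large classes together had 0.488, 0.481, 0.494 and 0.476 in the same order. LINE/L1 makes up 20733 of their 41434 entries and had an NC median of 0.426. In NC, LTR/ERV1 (0.535), LTR/ERVK (0.54), SINE/Alu (0.556), SINE/B2 (0.581) and SINE/B4 (0.552) lay above the members, so that their level is not particular to minor classes. All sets of 4 levels below follow this order of libraries. The members were also shorter, with a median consensus span of 160 bases against 447 bases. They reached the ends of the scale more often. The mean over the 4 libraries was below 0.1 for 263 members (7.47%) and at least 0.85 for 295 members (8.38%), against 4.97% and 3.87% of the entries of the large classes.

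Levels differed far more between entries of 1 repeat than between libraries. Among the 55 repeat names with at least 10 members, the interquartile range between entries had a median of 0.313. For a single member, the range over the 4 libraries had a median of 0.0611, and it stayed below 0.1 in 2674 of the 3521 members.

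**Figure D1:**
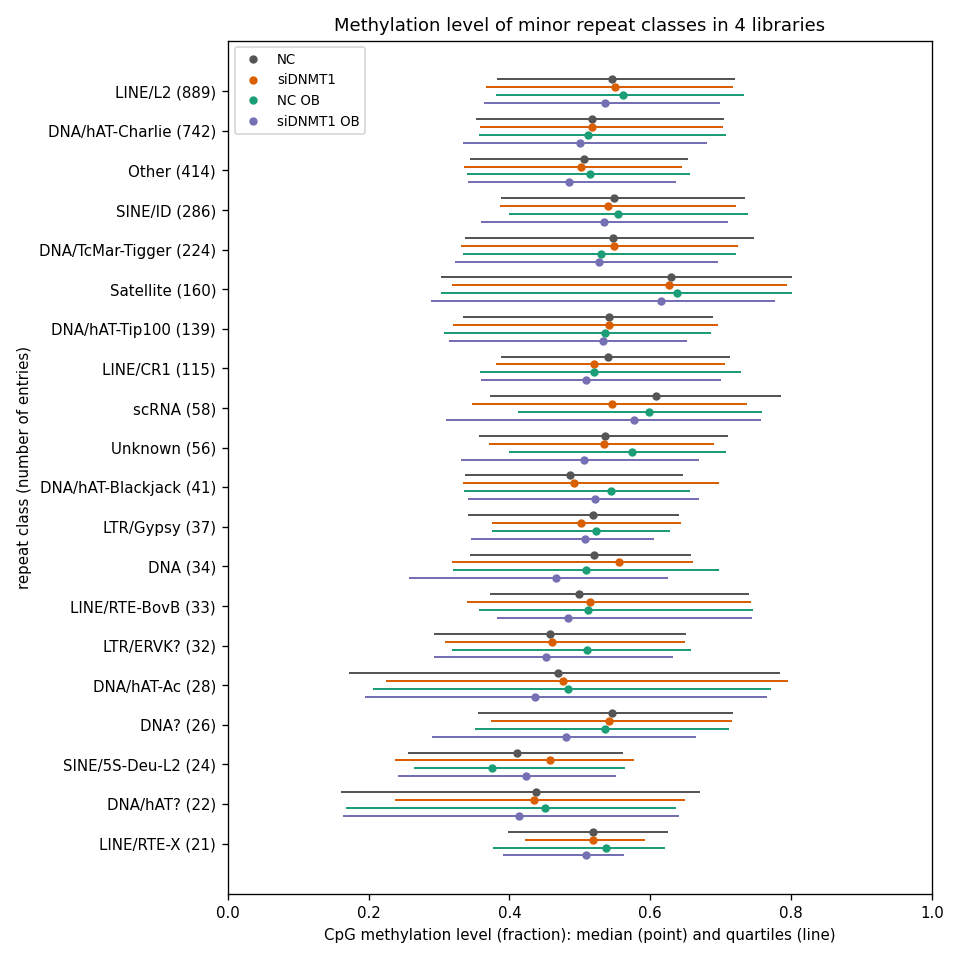
Median (point) and quartiles (line) of the CpG methylation level, a fraction, for the 20 repeat classes with at least 20 entries, with 1 colour per library and the number of entries in brackets. Satellites have the highest NC median, 0.63, and SINE/5S-Deu-L2 the lowest, 0.411, and in each class the quartiles of the 4 libraries overlap.

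The 44 classes were very unequal in size. The 20 classes with at least 20 members held 3381 entries, and the other 24 held 140. LINE/L2 had 889 members, DNA/hAT-Charlie 742, Other 414, SINE/ID 286, DNA/TcMar-Tigger 224, Satellite 160, DNA/hAT-Tip100 139 and LINE/CR1 115. There were 58 members in scRNA, 56 in Unknown, 41 in DNA/hAT-Blackjack, 37 in LTR/Gypsy, 34 in DNA, 33 in LINE/RTE-BovB and 32 in LTR/ERVK?. DNA/hAT-Ac had 28, DNA? 26, SINE/5S-Deu-L2 24, DNA/hAT? 22 and LINE/RTE-X 21. A question mark in a class name marks an uncertain assignment.

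Among the small classes, DNA/hAT had 18 members, SINE/tRNA-RTE 17, LTR 13, DNA/TcMar-Mariner 12, srpRNA 10 and DNA/TcMar-Tc2 9. LTR/ERVL? and SINE/tRNA-Deu had 8 each, LTR/Gypsy? and LTR? 6 each, and DNA/TcMar and DNA/hAT-Tip100? 5 each. LINE/Penelope had 4 members, and LINE/Dong-R4 and DNA/hAT-Tag1 had 3 each. DNA/PiggyBac, LINE/Jockey, LINE/L1-Tx1 and RC/Helitron had 2 each. DNA/Kolobok, DNA/TcMar-Pogo, DNA?/PiggyBac?, LTR/ERV1? and Unknown/Y-chromosome had 1 each. No rRNA, tRNA or snRNA class had a level in all 4 libraries.

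LINE/L2 is the relic of a LINE that was active in early mammals and is extinct. Its median levels were 0.545, 0.55, 0.562 and 0.536. Of its 889 entries, 579 (65.1%) had their midpoint past position 3000 of the consensus, that is near the 3′ end, the end that LINE copies keep most often. These 579 had a median of 0.539 in NC, and the 172 entries with midpoints from 2500 to 3000 had a median of 0.55. The 4 large L2 names were close to each other, with NC medians of 0.542 for L2a (268 entries), 0.562 for L2 (214), 0.527 for L2b (205) and 0.549 for L2c (127). L2b had 23 entries with a mean level below 0.1 and 27 at or above 0.85, so its middle value hides both extremes.

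The other old LINEs had similar levels. LINE/CR1, the class of L3, had medians of 0.539, 0.52, 0.52 and 0.509. LINE/RTE-BovB, here MamRTE1 alone, had 0.499, 0.515, 0.511 and 0.483. LINE/RTE-X had 0.518, 0.519, 0.538 and 0.509. The 3 LINE/Dong-R4 entries were higher, with a median of 0.731 in NC and 0.691 in siDNMT1 OB. The 4 LINE/Penelope entries had 0.588 in NC, the 2 LINE/L1-Tx1 entries 0.557 and the 2 LINE/Jockey entries 0.345.

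DNA transposons were the largest group, with 1313 members in 18 classes and medians of 0.525, 0.52, 0.514 and 0.504. The hAT classes together held 998 members, and most hAT copies in mammals are short elements that have lost the transposase. In hAT-Charlie the medians were 0.517, 0.518, 0.512 and 0.5. Its largest names were MER5A, with 118 entries and an NC median of 0.499, and MER20, with 83 entries and 0.512. Tip100 elements had 0.541 in NC, Blackjack elements 0.486 and Ac elements 0.469. The 18 entries of DNA/hAT without a subfamily were lower, at 0.387, 0.406, 0.371 and 0.364, and the 22 entries of DNA/hAT? had an NC median of 0.438. Tigger elements, which are related to the mariner transposons of insects, had 0.547, 0.549, 0.531 and 0.528. The 12 DNA/TcMar-Mariner entries had 0.484 in NC, the 9 DNA/TcMar-Tc2 entries 0.488, and the 5 DNA/TcMar entries 0.373. The 34 entries placed only as DNA had 0.52 in NC, and the 26 of DNA? had 0.546.

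The class Other held 3 repeat names, RMER1A, RMER1B and RMER1C, which are repeats of rodents. Their spans were long, with a median of 667 bases, and the class had medians of 0.506, 0.502, 0.514 and 0.484. RMER1B had 213 entries with an NC median of 0.52, RMER1A 138 with 0.494, and RMER1C 63 with 0.489.

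The 103 LTR entries outside the large classes had medians of 0.497, 0.471, 0.522 and 0.48. LTR/Gypsy, a group of retrotransposons that is old in mammals, had 0.519 in NC and no member above 0.848 there. LTR/ERVK?, an uncertain relative of the ERVK retroviruses, had 0.457, 0.46, 0.51 and 0.451. The 2 RC/Helitron entries, which belong to transposons that copy themselves as a rolling circle, had 0.593, 0.569, 0.486 and 0.456.

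Several minor classes derive from small RNAs. ID elements are short rodent SINEs whose sequence resembles that of BC1, a cytoplasmic RNA of neurons that is transcribed by RNA polymerase III. The 286 SINE/ID entries had medians of 0.548, 0.54, 0.554 and 0.535 and a median span of only 73 bases. ID4_ (113 entries) had an NC median of 0.531 and ID4 (91 entries) 0.575. The class scRNA held BC1_Mm alone, and its 58 entries had medians of 0.608, 0.546, 0.598 and 0.577. In NC they ran from 0 to 1, with quartiles at 0.372 and 0.786. The entry from base 2 to 110 was at 0 in every library, while that from base 27 to 86 was at 1, 0.988, 0.992 and 0.926. Both extremes thus occurred among entries of 1 repeat.

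The class srpRNA held the 10 entries of 7SLRNA, named after the RNA of the signal recognition particle, which guides new secretory proteins to the endoplasmic reticulum. Their medians were 0.652, 0.662, 0.652 and 0.609. The longer entries included the highest levels. The entry from base 1 to 203 had 0.909, 0.906, 0.912 and 0.894, and that from base 11 to 207 had 0.861, 0.85, 0.854 and 0.822. The lowest was the short entry from base 6 to 83, with 0.226, 0.353, 0.292 and 0.25. The range over the libraries was below 0.1 in 8 of the 10 entries.

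The ancient SINEs stood lower. AmnSINE1, a SINE of early amniotes whose head derives from 5S rRNA, made up SINE/5S-Deu-L2 and had medians of 0.411, 0.457, 0.375 and 0.423. MamSINE1, a mammalian SINE with a head derived from a tRNA, made up SINE/tRNA-RTE, and its 17 entries had medians of 0.0718, 0.106, 0.0851 and 0.109. These were the lowest medians of any class with more than 1 member. The entries that ended by position 150 of the consensus, a limit chosen after the values were seen, numbered 11 and had medians of 0.0258, 0.031, 0.0245 and 0.016. The other 6 had 0.528, 0.497, 0.474 and 0.511. The entry from base 5 to 80 had 0.00659 in NC, whereas that from base 16 to 290 had 0.63. Of these 6, the entries from base 194 to 284 and from base 223 to 290 were low as well, with 0.0718, 0.0344, 0.024 and 0 for the first and 0.147, 0.129, 0.0889 and 0.114 for the second. The 8 entries of SINE/tRNA-Deu had an NC median of 0.486.

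**Figure D2:**
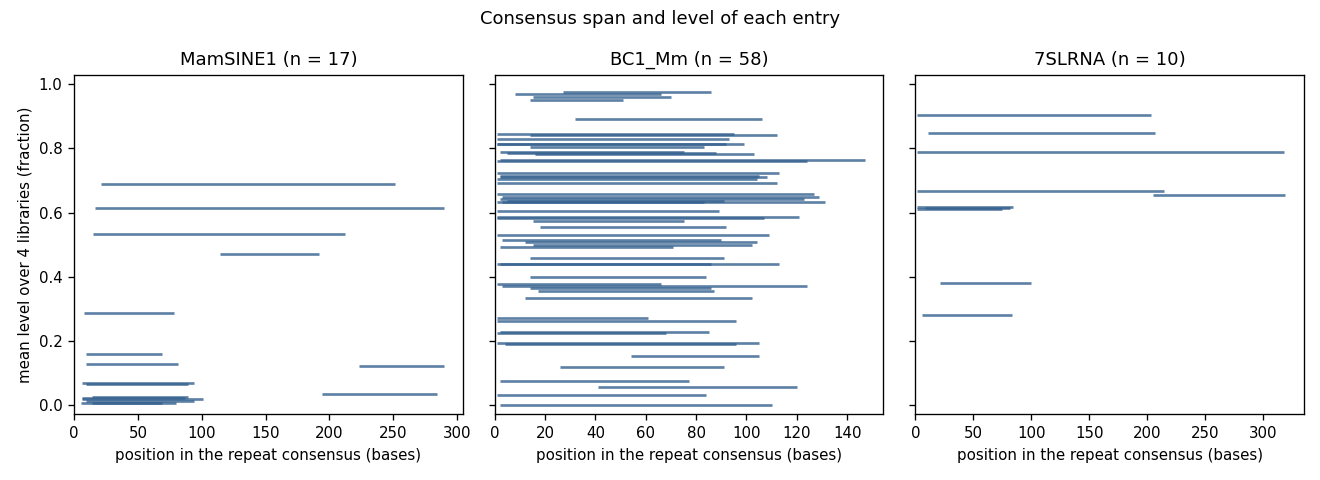
Mean level over the 4 libraries (vertical axis, fraction) of each entry of MamSINE1, BC1_Mm and 7SLRNA, drawn as a line over its span in the repeat consensus (horizontal axis, bases). In MamSINE1 the 11 entries that end by position 150 lie low and 4 of the others lie above 0.4, while BC1_Mm entries run from 0 to 0.976.

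Satellites had the highest level of the classes with at least 20 members, with medians of 0.63, 0.627, 0.638 and 0.616. This single value covers satellites that differ from each other. MMSAT4 (47 entries) had medians of 0.802, 0.793, 0.8 and 0.785, and the range over the libraries was below 0.1 in 44 of its 47 entries. GSAT_MM is the major satellite of the pericentromeric heterochromatin of mouse chromosomes, and its 7 entries had medians of 0.725, 0.695, 0.742 and 0.667. Its longest entry, from position 1 to 47113, had 0.725, 0.695, 0.742 and 0.657, and the entry from 1 to 38428 had 0.692, 0.69, 0.693 and 0.667. Numbers of this size span many monomers of the satellite.

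ZP3AR (30 entries) had medians of 0.507, 0.496, 0.563 and 0.509. IMPB_01 (72 entries) had 0.336, 0.324, 0.342 and 0.319, and its entries lay at both ends. The mean level was below 0.1 in 22 of them and at least 0.85 in 10. The IMPB_01 entry from base 6 to 77 had 0.00578 in NC, and that from base 5 to 85 had 0.978, although their spans were nearly the same. SYNREP_MM had 3 entries with an NC median of 0.664. The single MurSAT1 entry was low in every library, with 0.0645, 0.0759, 0.0933 and 0.0435.

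**Figure D3:**
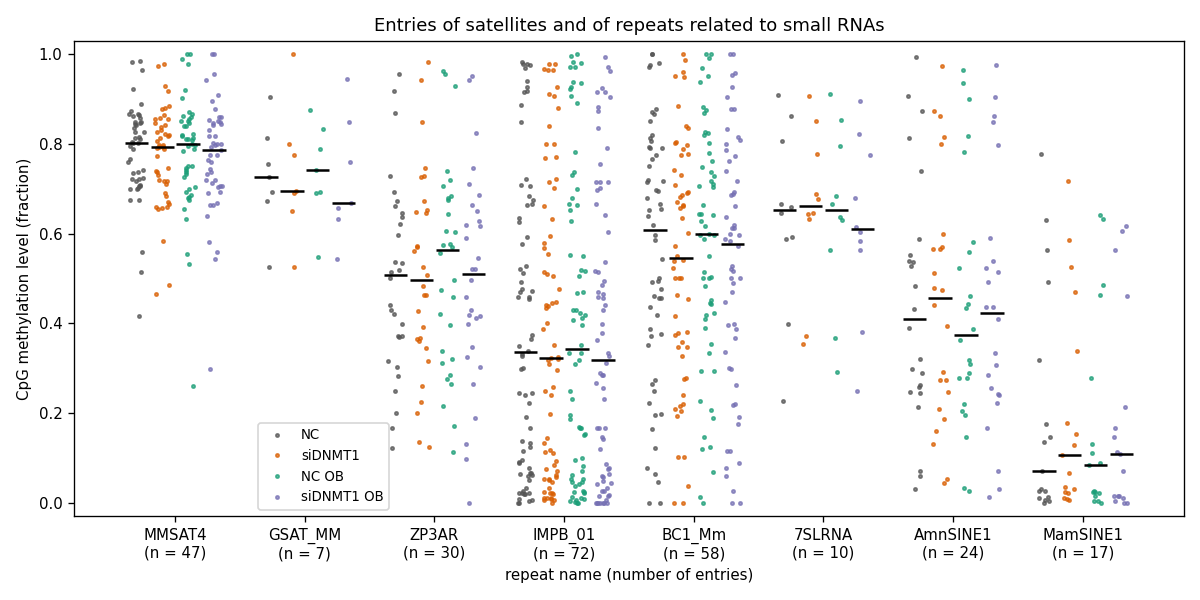
CpG methylation level (vertical axis, fraction) of each entry of 4 satellites and 4 repeats related to small RNAs, with 1 colour per library, 1 point per entry and a bar at the median. MMSAT4 has an NC median of 0.802, IMPB_01 is spread over the whole scale, and MamSINE1 has an NC median of 0.0718.

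Next, DNMT1 depletion was compared with control siRNA in uninduced cells. The median level differed little. The median difference (siDNMT1 minus NC) was -0.00472, against -0.00535 over all repeats. By any amount, 1961 members (55.7%, beside 57.6% of all repeats) were lower and 1544 higher. By at least 0.1, 118 members (3.35%) were lower and 118 (3.35%) higher. Of all repeats, 3.5% were lower and 2.86% higher by as much. The share of members that were lower was therefore close to the background.

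By class, 15 of the 20 classes with at least 20 members had a median difference below 0 in this comparison, and 5 above it. The lowest was AmnSINE1 (SINE/5S-Deu-L2) with -0.0137, followed by Unknown with -0.00959 and SINE/ID with -0.0094. The highest was DNA/hAT-Ac with 0.00489. LINE/L2 had -0.00363, with 31 entries lower and 31 higher by at least 0.1. DNA/hAT-Charlie had -0.00601, with 22 lower and 27 higher. The RMER1 repeats of class Other had -0.00614 (11 lower, 9 higher), and satellites had -0.00294 (7 lower, 3 higher). BC1_Mm had -0.00663 (4 lower, 3 higher), although the median of its levels was 0.608 in NC and 0.546 in siDNMT1. The median of the differences and the difference of the medians thus gave different sizes for this repeat.

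In OB medium the same siRNA comparison (siDNMT1 OB minus NC OB) gave a larger difference. The median was -0.0171 over the members and -0.0158 over all repeats. Any decrease was seen in 2349 members (66.7%, beside 68.4% of all repeats) and any increase in 1143. By at least 0.1, 245 members (6.96%) were lower and 115 (3.27%) higher, while 5.38% of all repeats were lower and 3.08% higher. The comparison rests on the siDNMT1 OB library, which listed the fewest entries and had the most levels at exactly 0 or 1. The part of this in the result was not tested. Without the members at exactly 0 or 1 in any library, 223 of 3388 were lower and 102 higher, with a median of -0.0172.

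**Figure D4:**
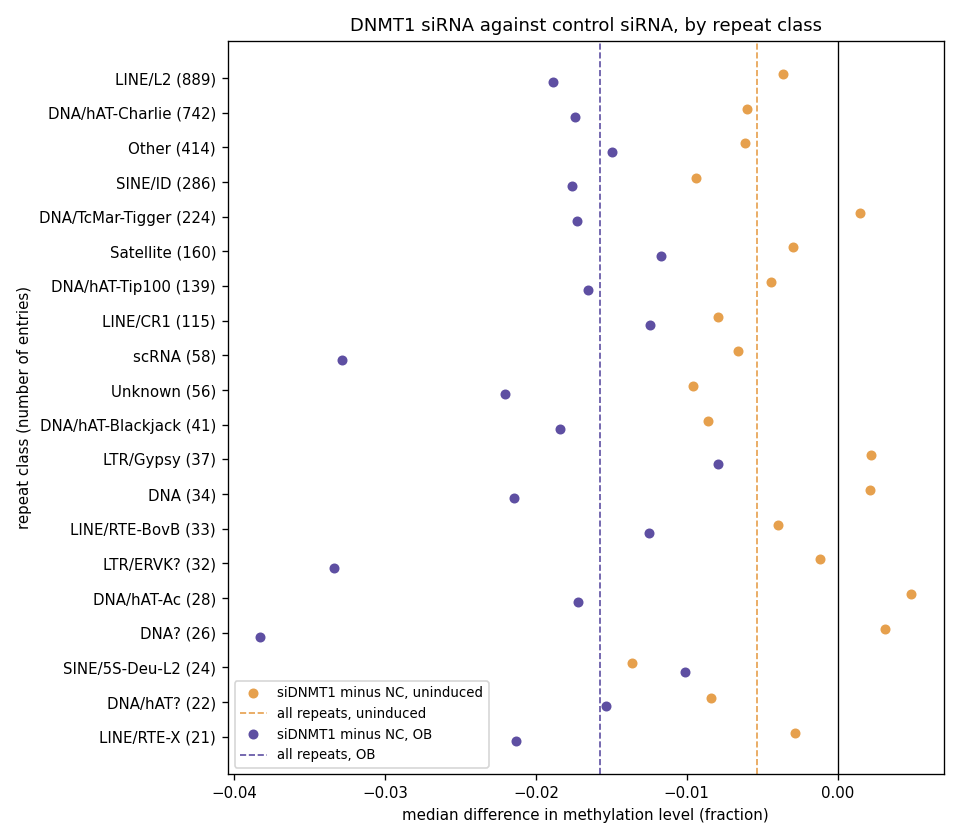
Median difference in methylation level (siDNMT1 minus NC, fraction) for the 20 classes with at least 20 entries, in uninduced cells and in OB medium, with dashed lines at the medians over all repeats (-0.00535 and -0.0158). In OB medium each of the 20 medians lies below 0, and after each library was centred on its median over all repeats the median over the members was 0.000963.

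All 20 classes with at least 20 members had a median difference below 0 in OB medium, from -0.0383 for DNA? to -0.00795 for LTR/Gypsy. The 9 large classes were all below 0 as well, from -0.0223 for SINE/B2 to -0.0137 for LINE/L1. LTR/ERVK? had -0.0334 and BC1_Mm -0.0329. Of the 58 BC1_Mm entries, 10 (17.2%) were lower and 3 (5.17%) higher by at least 0.1, beside 5.38% and 3.08% of all repeats. Among entries of the 9 large classes with spans of 50 to 99 bases, 8.82% were lower and 4.32% higher. In either direction this was 13.1%, against 22.4% of the BC1_Mm entries. The BC1_Mm entry from base 1 to 68 had 0.266 in NC, 0.217 in siDNMT1, 0.293 in NC OB and 0.116 in siDNMT1 OB, and that from base 3 to 129 had 0.717, 0.671, 0.707 and 0.5. In both the siDNMT1 OB level was the lowest of the 4, which their choice among entries lower in OB medium favours. It was not the lowest in all such entries. That from base 12 to 104 had 0.437, 0.55, 0.599 and 0.448, and that from base 15 to 102 had 0.544, 0.275, 0.641 and 0.528. The 3 that were higher were the entries from base 5 to 88, with 0.643 in NC OB and 1 in siDNMT1 OB, from base 3 to 90, with 0.452 and 0.6, and from base 14 to 91, with 0.391 and 0.502.

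The larger of these 20 minor classes lay nearer the median of all repeats than DNA?, LTR/ERVK? and BC1_Mm. Some small classes did so too, such as DNA/hAT? (22 entries, -0.0153) and DNA/hAT-Ac (28 entries, -0.0172). LINE/L2 had -0.0189 (67 lower, 26 higher), and within it the name L2 had -0.0245 and L2a -0.0161. DNA/hAT-Charlie had -0.0174 (61 lower, 25 higher), and DNA/TcMar-Tigger had -0.0173 (22 lower, 10 higher). SINE/ID had -0.0176 (17 lower, 8 higher), with -0.0139 for ID4_ and -0.0225 for ID4. Satellites had -0.0117 (11 lower, 4 higher), with -0.00899 for MMSAT4, -0.00967 for IMPB_01 and -0.0258 for GSAT_MM. In the class Other, which had the longest median span of the 20 classes, 13 entries were lower and 17 higher, and its median was -0.0149. LINE/CR1 likewise had fewer entries lower (2) than higher (5), with a median of -0.0124. The 10 entries of 7SLRNA had -0.0209, and none of them differed by 0.1 or more.

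When each library was centred on its median over all repeats, the members' median difference was 0.00131 in uninduced cells and 0.000963 in OB medium. Over all repeats the centred medians were 0.000682 and 0.00232. After this centring, 169 members (4.8%) were lower and 165 (4.69%) higher by at least 0.1 in OB medium, beside 3.97% and 4.11% of all repeats.

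The difference between the OB and the uninduced value of the siRNA comparison had a median of -0.0123 over the members and of -0.0108 over all repeats. It was below 0 in 2135 members (60.6%) and in 60.5% of all repeats. It was -0.0289 for BC1_Mm, -0.0303 for LINE/RTE-X and -0.0302 for LTR/ERVK?, and -0.00645 for LINE/CR1. These classes are small, and the difference was not tested.

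The OB minus uninduced comparisons share libraries with those above, and in them medium and time after transfection cannot be told apart. With control siRNA (NC OB minus NC), the median difference of the members was 0.000769, while it was 0.00603 over all repeats and 0.00643 over the 9 large classes. Lower by at least 0.1 were 143 members (4.06%) and higher 130 (3.69%), beside 3.31% and 3.64% of all repeats. Of the 20 classes with at least 20 members, 9 had a median below 0 and 11 above. LTR/ERVK? had the highest, 0.018, and SINE/5S-Deu-L2 the lowest, -0.0097. The satellite ZP3AR had 0.0342, and MMSAT4 had -0.00105. LINE/L2 had 0.00198 (23 lower, 37 higher), and DNA/hAT-Charlie had 36 lower and 25 higher.

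With DNMT1 siRNA (siDNMT1 OB minus siDNMT1), the median difference of the members was -0.0109, and over all repeats it was -0.00347. By at least 0.1, 267 members (7.58%) were lower and 137 (3.89%) higher, beside 5.32% and 3.9% of all repeats. All 20 classes with at least 20 members had a median below 0, from -0.0309 for LINE/RTE-X to -0.00194 for LTR/Gypsy. LINE/L2 had -0.0118, DNA/hAT-Charlie -0.0122 and DNA/TcMar-Tigger -0.0147, whereas SINE/ID had -0.00363 and the RMER1 repeats -0.00361. After centring, the members' medians were -0.0059 with control siRNA and -0.00545 with DNMT1 siRNA, and those of all repeats -0.000642 and 0.00193. LINE/L1, the largest class, had uncentred medians of 0.00989 and 0.000988. The SINE classes had values near those of the members, with -0.000376 and -0.0109 for SINE/Alu, 0.000787 and -0.0101 for SINE/B4, 0.00244 and -0.0127 for SINE/B2, and 0.000378 and -0.0157 for SINE/MIR.

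The share of changed entries also went with span. In OB medium the siRNA comparison gave a change of at least 0.1 in either direction for 10.2% of the members and 8.31% of the entries of the large classes. Among spans of 100 to 199 bases it was 11.4% of 1148 members and 11.4% of the large classes. From 200 to 399 bases it was 9.9% against 8.92%, and from 400 bases on it was 8.53% against 6.24%. Members of 50 to 99 bases, a range that holds the median spans of SINE/ID (73) and BC1_Mm (88), changed in 10.5% of 932 cases, against 13.1% in the large classes. The members therefore had the larger share only among entries of 200 bases or more in these bins, and the shortest 80 members, under 50 bases, had 5% against 13.9%.

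The size of the difference also went with the level. In OB medium the median siDNMT1 minus NC difference was 0 for the 263 members with a mean below 0.1, -0.00843 for the 476 from 0.1 to 0.3, and -0.0171 for the 877 from 0.3 to 0.5. It was -0.0204 for the 1038 from 0.5 to 0.7 and -0.023 for the 867 above. The mean uses the same 4 levels as the difference. The 9 large classes gave 0, -0.00803, -0.0159, -0.0185 and -0.0211 in the same bins.

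The siRNA comparisons in uninduced cells and in OB medium share no library, and few entries passed 0.1 with like sign in each. There were 29 members (0.824%) lower in both and 16 (0.454%) higher in both, beside 0.703% and 0.48% of all repeats. In 34 members (0.966%) the changes had opposite directions, beside 1.12% of all repeats. LINE/L2, with 889 of the 3521 members, supplied 11 of the 29 and 1 of the 16. DNA/hAT-Charlie, with 742 members, supplied 5 of the 29 and 5 of the 16. The class Other, with 414 members, supplied 2 of the 29 and 4 of the 16.

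**Figure D5:**
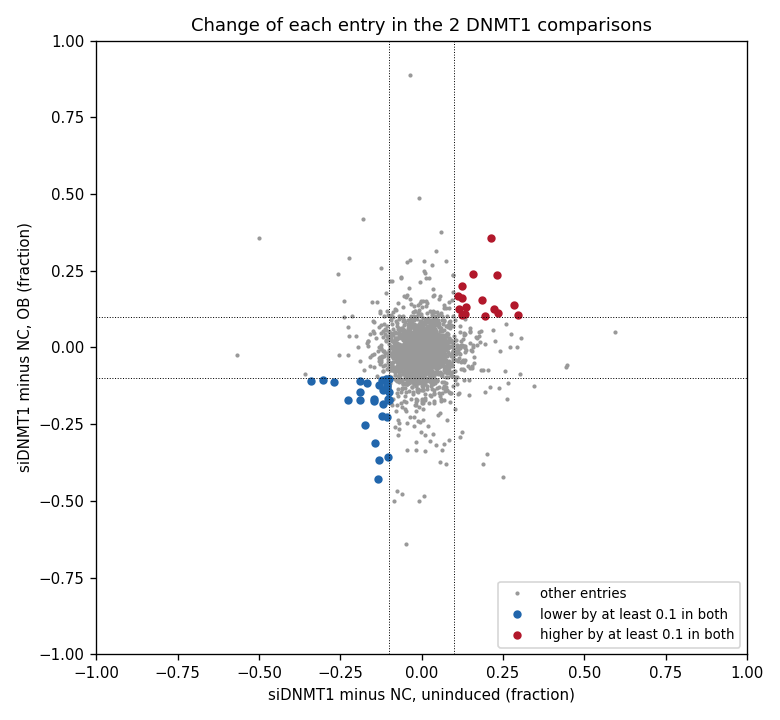
Difference in methylation level (fraction) of each of the 3521 entries in the siDNMT1 minus NC comparison, in uninduced cells (horizontal axis) and in OB medium (vertical axis), with dotted lines at 0.1 and -0.1. The 29 entries lower in both are blue, the 16 higher in both are red, and most entries lie within the central square.

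The members lower in both comparisons were ranked by the smaller of their 2 changes. The first 5 came from LINE/L2 and the hAT classes, which hold 889 and 998 of the 3521 members. An L2a entry at consensus positions 3257 to 3392 had 0.513 in NC, 0.339 in siDNMT1, 0.674 in NC OB and 0.423 in siDNMT1 OB. An Arthur1A entry, a hAT-Tip100 element at positions 53 to 171, had 0.418, 0.19, 0.431 and 0.261. In both, the 2 siDNMT1 levels lay below the 2 NC levels.

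A MER58A entry at positions 17 to 209, of hAT-Charlie, had 0.517, 0.329, 0.452 and 0.281. An L2 entry at positions 2178 to 2262 had 0.508, 0.36, 0.5 and 0.333. A MER20 entry at positions 11 to 217 started from full methylation, with 1, 0.81, 0.952 and 0.806. In these 3 entries, too, both siDNMT1 levels lay below both NC levels, which the choice by these differences favours.

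The 5 members ranked highest in the same way among the 16 with an increase in both included 3 RMER1 entries. RMER1 repeats supplied 4 of all 16, and 2 of the 29 lower in both. RMER1C at positions 806 to 1223 had 0.398, 0.629, 0.493 and 0.731. RMER1A at positions 666 to 1030 had 0.459, 0.618, 0.226 and 0.464, and RMER1B at positions 218 to 1062 had 0.0968, 0.381, 0.0962 and 0.234. In RMER1C and RMER1B both siDNMT1 levels lay well above both NC levels, and in RMER1A the siDNMT1 OB level was only just above the NC level. MamRTE1 at positions 3565 to 3661 had 0, 0.214, 0.0588 and 0.417, and Charlie1a at positions 330 to 658 had 0.561, 0.745, 0.5 and 0.653. Both siDNMT1 levels were again above both NC levels. The choice by these differences favours such an order in all 5 entries.

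The 3 members with the largest range over the 4 libraries did not follow the siRNA in both media. BC1_Mm at positions 1 to 89 had 0.0769, 0.348, 1 and 1. It was low in both uninduced libraries and full in both OB libraries. Tigger5b_Glire at positions 1 to 211 had 0.591, 0.556, 0.111 and 1. L2c at positions 3034 to 3183 had 0.464, 0.416, 0.641 and 0. Each of the 3 reached exactly 0 or 1 in at least 1 library, and the number of reads behind these levels is unknown.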

How the data were processed

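Genomic DNA of C3H10T1/2 cells was bisulfite-sequenced in 4 libraries, 1 per condition. The study calls the assay RRBS, while its methods describe sonication and name no restriction digest. According to the submitters' processing notes, reads were handled with Trimmomatic 0.36 and Bismark 0.16.3 on mm10. How region levels were averaged, and which read minimum was used, is not given in the sources used here. The authors deposited 1 table per library with a fraction (methylated share of CpG) for each listed region and no counts. Repeat identifiers give consensus positions only.

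From these fractions, differences, medians, quartiles and counts past 0.1 were computed with Python 3.11.15, pandas 2.3.3 and numpy 2.4.6. Figures were drawn with matplotlib 3.10.9. The counting step was checked by planting known drops in the members' mean levels, without noise. This checks the code and not the error of the counts. No test was run, since each condition had 1 library. The classes, names and thresholds were chosen with earlier results of these data known. All classes are counted, and classes of at least 20 members are described singly. At most 10 repeat names of at least 10 members are named by rank. Up to 5 entries per direction changed by at least 0.1 in both siRNA comparisons and the 3 with the largest range are named, and structural RNAs and satellites are described at any size. BC1_Mm, MamSINE1, 7SLRNA, IMPB_01, MMSAT4 and other single entries were picked as examples after their values were seen. The sequence comes from RefSeq GRCm38.p6.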

Additional observations from a re-analysis of the deposited data

Results flagged for a closer look

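The members' median OB minus uninduced difference had opposite signs with the 2 siRNAs. It was 0.000769 with control siRNA and -0.0109 with DNMT1 siRNA, a difference of -0.0116. Uncentred medians over all repeats (0.00603 and -0.00347) and over the 9 large classes (0.00643 and -0.00298) changed sign as well. The sign change is thus not particular to the members. After each library was centred on its median over all repeats, the members' 2 values had the same sign, -0.0059 and -0.00545. The members' uncentred value with control siRNA is close to 0. Without centring, the same sign change was seen for the class medians of LINE/L2 (difference -0.0138), DNA (-0.0216), DNA/hAT-Ac (-0.0201), DNA/hAT? (-0.0269), LINE/RTE-BovB (-0.00959) and LTR/ERVK? (-0.0406). It was also seen, again without centring, for Other (-0.00632), SINE/ID (-0.00664), Satellite (-0.0125), Unknown (-0.0253) and scRNA (-0.0188). The medians of single classes were not computed after centring, so whether their sign change remains was not tested.

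The effect of DNMT1 siRNA had opposite signs without and with OB medium in 5 classes, above 0 in uninduced cells and below 0 in OB medium. The OB value minus the uninduced value was -0.0236 for DNA, -0.0188 for DNA/TcMar-Tigger, -0.0221 for DNA/hAT-Ac, -0.0414 for DNA? and -0.0102 for LTR/Gypsy. With 1 library per condition none of these differences was tested, and a shift of the whole siDNMT1 OB library cannot be told apart from an effect on a class.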

How the results depend on the processing

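Centring each library on its median over all repeats reversed the median siDNMT1 minus NC difference, to 0.00131 in uninduced cells and 0.000963 in OB medium, and the OB difference with control siRNA, to -0.0059. With DNMT1 siRNA the OB difference became -0.00545. By the mean in place of the median, the siRNA difference in OB medium was -0.0185 and the OB difference with DNMT1 siRNA -0.0143. With each repeat name counted once, chosen after seeing the data, the latter was -0.0141. At a threshold of 0.05 the siRNA comparisons counted 858 changed members in uninduced cells and 1063 in OB medium, and the OB comparisons 972 and 1073. At 0.2 these counts were 43, 81, 57 and 100. The share of all repeats was computed at 0.1 only, so the counts at 0.05 and 0.2 have no background beside them. Only the 2509 members of at least 100 bases gave 155 changed in uninduced cells, by fewer members. The other 32 values kept their sign, with medians inside a 95% order-statistic interval of the members' median and counts within 1.5 times. That interval served only to sort the values. It treats members as independent, which they are not, and holds no error between libraries. Autosomes alone and members outside CpG islands were not run, since identifiers hold no genome position. No paired analysis was possible because each condition had 1 library and no test was made. No depth accompanies the levels.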
